A study of Mus musculus with 6 samples.

Results

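The genes for the proteins of the cytoplasmic ribosome were examined in mouse liver, in 3 Cyr61 KO and 3 Control libraries of bulk RNA sequencing. They were taken by symbol, as every gene named Rpl or Rps with a number, with its lettered paralogs, plus Rplp0, Rplp1, Rplp2 and Rpsa, and without names marked as pseudogenes. This gave 85 of the 24411 gene symbols in the tables, 52 of the large subunit and 33 of the small subunit. The rule used names only, no measured value. It also takes Rps4l, which GENCODE lists as a transcribed processed pseudogene; the other 84 are listed as protein-coding. All mice were male and 24 weeks old, had eaten a diet that models NASH (non-alcoholic steatohepatitis) during 12 weeks, and carried the strain label Cyr61fl/fl, which means floxed Cyr61 alleles. The genotype label is Cyr61 KO or Control, and the series concerns fibrosis in NASH and signalling through SYK, NFκB and PDGF in macrophages. The labels do not say which Cre removed Cyr61, in which cells, or whether the libraries of a group are separate mice. A p-value here thus reflects only how much these libraries vary, which may be technical.

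Each ribosome joins a small subunit, which reads the mRNA, to a large subunit, which forms the peptide bonds. Their proteins are needed in near equal amounts, and in mammals the mRNAs of nearly all of them begin with a run of pyrimidines (a TOP sequence) through which mTORC1 and LARP1 control their translation and stability. The genes are scattered over the genome, have many processed pseudogenes, and are among the most highly expressed genes of any cell, hepatocytes included.

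Cyr61, which encodes a secreted matrix-associated protein, had 3.77, 2.66 and 3.14 CPM in the Cyr61 KO libraries, against 15.6, 32.4 and 27.8 CPM in the Control libraries, each time in the order of replicates 1, 2 and 3, which is kept throughout. CPM are counts scaled by edgeR's TMM method to a common library size. Every Cyr61 KO library was below every Control library, with a log2 fold change of -2.98 (SE 0.32, edgeR adjusted p = 0.0103; without Cyr61 KO replicate 1, -3.10 and adjusted p = 0.0615). The libraries held 31133292 to 40377742 gene counts in Cyr61 KO and 21032878 to 34827903 in Control. Control replicate 2 stood apart: 50.9% of its reads fell in genes and 19.4% mapped to several places, whereas in the other 5 libraries 82.8% to 87.6% fell in genes and at most 5.73% mapped to several places.

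Ribosomal protein genes took a smaller share of the counts in Cyr61 KO livers. They held 1.63%, 1.22% and 1.17% of the gene counts in the Cyr61 KO libraries, against 2.23%, 4.15% and 2.20% in the Control libraries. Control replicate 2 had the highest share and Cyr61 KO replicate 1 the highest of its group, and the groups did not overlap. The mean share was 1.34% ± 0.258 in Cyr61 KO and 2.86% ± 1.12 in Control (SD, n = 3 each). The difference of the means was -1.52 percentage points over all libraries and -0.88 percentage points without Control replicate 2. When all reads were the denominator, so that reads outside genes counted too, the shares were 1.42%, 1.01% and 0.987% in Cyr61 KO, against 1.91%, 2.11% and 1.93% in Control. On that scale Control replicate 2 lay close to the other Control libraries, and the difference of the means was -0.84 percentage points. In these bulk samples, fewer cells of a type and less RNA per cell cannot be told apart.

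**Figure D1:**
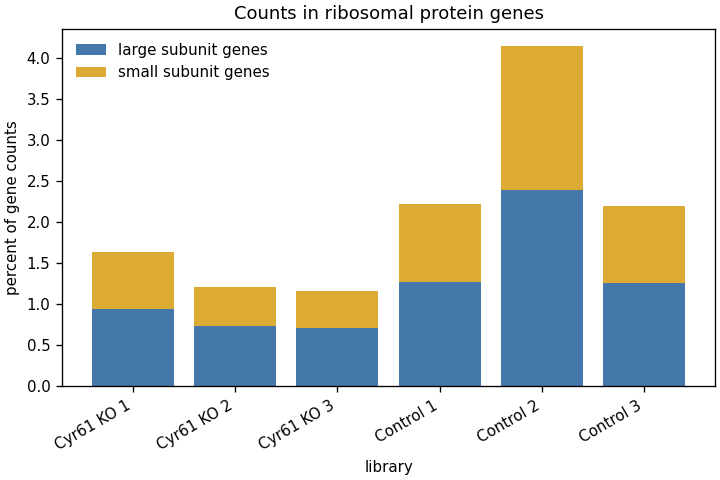
Percent of gene counts in ribosomal protein genes in each library (bars stacked by subunit, 1 library a bar). The Cyr61 KO libraries sit between 1.17% and 1.63%, all below the Control libraries, of which replicate 2 reaches 4.15%.

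Genes of both subunits contributed to the difference. Large subunit genes held 0.947%, 0.737% and 0.709% of gene counts in Cyr61 KO, against 1.28%, 2.39% and 1.26% in Control. Small subunit genes held 0.688%, 0.478% and 0.457% in Cyr61 KO, against 0.954%, 1.75% and 0.938% in Control. The ratio of large to small subunit counts was 1.38, 1.54 and 1.55 in Cyr61 KO, against 1.34, 1.36 and 1.35 in Control. The ratio was thus nearly constant among the Control libraries and higher in every Cyr61 KO library, least in replicate 1.

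Of the 85 genes, 79 passed the filter on low counts and were tested gene by gene, 47 of the large and 32 of the small subunit. A fit over 13563 genes with edgeR's quasi-likelihood test called 2 of them lower in Cyr61 KO at an adjusted p below 0.05, Rps24 and Rps15a, and 0 higher. That is 2.53% of those tested, beside 2.37% of all tested genes called lower and 1.07% called higher (3.44% in either direction), so the share of calls was near the background. At an unadjusted p below 0.05, 52 of the 79 were lower and 0 higher, beside 16.1% of all genes lower and 11.3% higher. DESeq2, used as an alternative, called 37 lower and 0 higher at an adjusted p below 0.05, beside 10.2% of all genes lower and 6.54% higher. Adjusted p lay between 0.05 and 0.06 in 7 further genes by edgeR, starting with Rpl32 at 0.0505. The share of all tested genes in that range is not given here.

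The tested genes lay mostly on one side of 0. The log2 fold change of Cyr61 KO over Control was negative in 77 of 79, beside 51.6% of all tested genes, and at least 2-fold lower in 20, beside 15.7%. Its median was -0.85, a fold of 0.554, with quartiles of -1.01 and -0.59. Over all tested genes the median was -0.03. Every Cyr61 KO library was below every Control library in 50 of the 79, beside 17.9% of all genes, the reverse held in 0, beside 17.3%, and the groups overlapped in 29. The median was -0.74 over large subunit genes, of which 27 did not overlap, and -0.91 over small subunit genes, of which 23 did not overlap. Leaving out Control replicate 2 gave a median of -0.61, and leaving out Cyr61 KO replicate 1 gave -1.02.

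**Figure D2:**
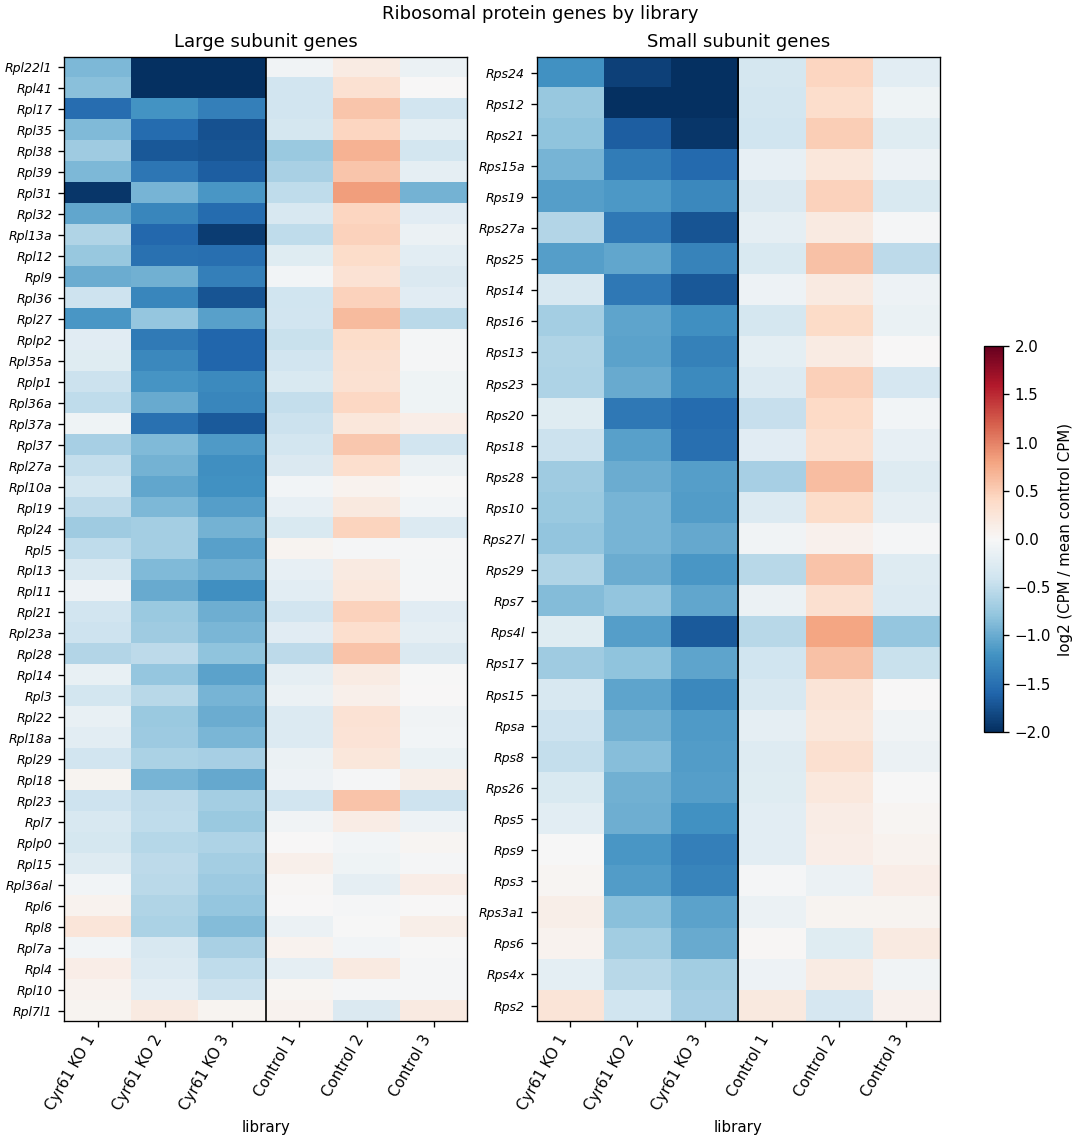
The 77 tested genes drawn, each with a mean of at least 1 CPM (rows, sorted by fold change within each subunit) in each library (columns), as log2 of its CPM over the mean Control CPM; the colour scale ends at -2 and 2. Cyr61 KO replicates 2 and 3 are blue in nearly every row, Cyr61 KO replicate 1 is paler, and Control replicate 2 is the reddest column.

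Rps24, a small subunit protein whose gene is mutated in some human families with Diamond-Blackfan anaemia, was counted at 180.0, 115 and 101 CPM in Cyr61 KO, against 326, 563 and 359 CPM in Control. All 3 Cyr61 KO libraries were far below all 3 Control libraries, and Control replicate 2 was the highest. Its log2 fold change was -1.66 (SE 0.34, edgeR adjusted p = 0.0416), with means of 132 ± 42.2 CPM in Cyr61 KO and 416 ± 128 CPM in Control (SD, n = 3 each). The gene (ENSMUSG00000025290.17) lies at chr14:24487125-24496959 on the plus strand of GRCm38. Rps15a, a small subunit protein that binds 18S rRNA, was counted at 98.1, 71.2 and 63.9 CPM in Cyr61 KO, against 167, 219 and 175 CPM in Control. Again the groups did not overlap, and the spread within each was narrow. The log2 fold change was -1.27 (SE 0.26, edgeR adjusted p = 0.0397), with means of 77.7 ± 17.99 CPM in Cyr61 KO and 187 ± 27.9 CPM in Control (SD, n = 3 each). The gene (ENSMUSG00000008683.16) lies at chr7:118104372-118116188 on the minus strand. Both calls depended on the set of libraries: neither gene passed in edgeR without Cyr61 KO replicate 1, 2 or 3 or without Control replicate 1 or 2. Over those 5 fits, 0 to 2 ribosomal protein genes were called, namely Rpl22l1 without Cyr61 KO replicate 1, and Rpl17 and Rps19 without Control replicate 2. In the same fits 0.022% to 4.35% of all genes were called lower.

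The start regions of these genes are shown because ribosomal protein promoters share letters that other promoters hold less often. RefSeq's table for GRCm38.p6 listed a start for 64 of the 85 genes. In each gene, 250 bases before to 50 bases after each listed start were searched on both strands. A gene with several starts counted if any of them matched. CCGGAAG, the core letters of ETS family sites, stood in 40.6% of the 64 genes, beside 9.93% of all 27025 genes with a start. CTCTTTC, a pyrimidine run of the TOP kind, stood in 28.1%, beside 9.28%, AAGATGGC, the core of YY1 sites, in 9.38%, beside 3.19%, and TATAAA in 10.9%, beside 15.7%. Genes with and without the letters had nearly the same change: with CCGGAAG the median log2 fold change was -0.89 over 24 tested genes and without it -0.82 over 35, and with CTCTTTC it was -0.82 over 17 and without it -0.87 over 42. A match is a description of letters and not of a bound site. The lines below run from 40 bases before to 25 bases after the listed start, 5′ to 3′ on the gene's strand, for the called pair, the 3 other genes of largest change and 2 genes of small change; capitals mark any of these letters on either strand, matches that overlap being joined, and Rps24 has 2 starts in the table, of which 1 is shown.
Rps24, chr14:24490638-24490702, plus strand: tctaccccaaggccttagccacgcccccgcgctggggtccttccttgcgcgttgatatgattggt
Rps15a, chr7:118116123-118116187, minus strand: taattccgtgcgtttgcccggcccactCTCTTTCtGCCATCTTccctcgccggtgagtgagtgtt
Rpl22l1, chr3:28805468-28805532, plus strand: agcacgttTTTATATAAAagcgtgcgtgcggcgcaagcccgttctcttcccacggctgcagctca
Rpl41, chr10:128549144-128549208, minus strand: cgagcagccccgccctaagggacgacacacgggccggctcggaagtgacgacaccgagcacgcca
Rps12, chr10:23787185-23787249, minus strand: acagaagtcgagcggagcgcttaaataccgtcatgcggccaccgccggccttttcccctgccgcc
Rpl7l1, chr17:46782632-46782696, minus strand: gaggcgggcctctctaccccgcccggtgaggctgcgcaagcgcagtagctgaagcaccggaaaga
Rpl10, chrX:74270776-74270840, plus strand: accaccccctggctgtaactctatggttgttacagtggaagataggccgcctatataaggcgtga
Among these windows, Rps15a holds CTCTTTC before its listed start and GCCATCTT, the opposite strand of AAGATGGC, across it, and Rpl22l1 holds TATAAA before it. The other 5 hold none of these letters between the ends shown. Rps2 and Rpl4, also genes of small change, are not printed. In the same span Rps2 holds TATAAA and Rpl4 holds none of these letters.

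Rpl22l1 had the largest change of all tested genes of the set, and Rpl41 and Rps12 came after Rps24. Rpl22l1, the paralog of the RNA-binding protein Rpl22, was counted at 36.0, 11.6 and 13.8 CPM in Cyr61 KO, against 64.2, 75.4 and 61.8 CPM in Control. Replicate 1 was the highest Cyr61 KO library, yet below every Control library, and the log2 fold change of -1.71 (SE 0.41) missed the threshold (edgeR adjusted p = 0.0542; without Cyr61 KO replicate 1, -2.39 and 0.0429). Rpl41, the shortest of these proteins with a coding length of 75 bases, was counted at 279.8, 119.9 and 103 CPM in Cyr61 KO, against 381, 612 and 500.5 CPM in Control, a log2 fold change of -1.57 (SE 0.42, edgeR adjusted p = 0.0726). Rps12, a protein of the small subunit's beak, was counted at 321, 117 and 111 CPM in Cyr61 KO, against 421, 690.4 and 509 CPM in Control, a log2 fold change of -1.56 (SE 0.45, edgeR adjusted p = 0.0825). In both, Cyr61 KO replicates 2 and 3 were low and close together, replicate 1 lay between them and the Control libraries, and the groups did not overlap.

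The 7 genes with an adjusted p between 0.05 and 0.06, chosen for their description after their values were seen, all had groups that did not overlap. As these genes were picked by p, the lack of overlap is a description only. They include Rpl22l1, Rpl17 and Rps27l, whose values are given with their own groups. Rpl32, of the large subunit, was counted at 137, 113 and 96.2 CPM in Cyr61 KO, against 224, 377 and 239.9 CPM in Control (log2 fold change -1.28, SE 0.29). Rps19, the gene most often mutated in human Diamond-Blackfan anaemia, was counted at 93.2, 90.2 and 82.5 CPM in Cyr61 KO, against 164, 277 and 162 CPM in Control (log2 fold change -1.18, SE 0.28, edgeR adjusted p = 0.0532). Its Cyr61 KO libraries were almost equal, replicate 1 included, and Control replicate 2 was again the highest. Rpl9, of the large subunit's stalk base, was counted at 131, 134 and 101 CPM in Cyr61 KO, against 253, 319 and 214 CPM in Control (log2 fold change -1.10, SE 0.26, edgeR adjusted p = 0.0541). Rpl35, near the tunnel exit, was counted at 112, 71.1 and 61.7 CPM in Cyr61 KO, against 162, 277 and 180.2 CPM in Control (log2 fold change -1.34, SE 0.32, edgeR adjusted p = 0.0556).

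Per transcript length, on the TPM scale computed from a single annotated length a gene, the highest levels were those of Rplp1, Rps12, Rpl13a and Rpl41. Rplp1 stood at 997 ± 193 TPM in Cyr61 KO and 2166 ± 861 TPM in Control. Rps12 stood at 543 ± 275 TPM in Cyr61 KO and 1915 ± 829 TPM in Control, Rpl13a at 624 ± 216 TPM in Cyr61 KO and 1757 ± 908 TPM in Control, and Rpl41 at 482 ± 209 TPM in Cyr61 KO and 1690 ± 666 TPM in Control (SD, n = 3 each). Their order within Control is not separated by the spread.

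Rplp0, Rplp1 and Rplp2 form the stalk of the large subunit that recruits elongation factors. Rplp0, often used as a reference gene in quantitative PCR, was counted at 522, 446 and 434 CPM in Cyr61 KO, against 671, 639.7 and 683 CPM in Control, without overlap and with little spread (log2 fold change -0.51, SE 0.26, edgeR adjusted p = 0.231). Rplp1 was counted at 462, 276 and 259 CPM in Cyr61 KO, against 508, 774 and 590.2 CPM in Control (log2 fold change -0.91, SE 0.33, edgeR adjusted p = 0.127). Rplp2 was counted at 258, 114 and 100.3 CPM in Cyr61 KO, against 222, 390.1 and 293 CPM in Control (log2 fold change -0.94, SE 0.40, edgeR adjusted p = 0.174). Cyr61 KO replicate 1 lay inside the Control range for Rplp2 but below it for the other two stalk genes. Rpsa, the small subunit protein also described as a laminin receptor, was counted at 501, 343 and 307 CPM in Cyr61 KO, against 590.3, 782 and 637 CPM in Control, without overlap (log2 fold change -0.80, SE 0.30, edgeR adjusted p = 0.133).

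A few genes had small differences. Rpl10, which joins the large subunit late in its assembly, was counted at 548, 449.3 and 385 CPM in Cyr61 KO, against 537, 514 and 513 CPM in Control (log2 fold change -0.18, SE 0.26, edgeR adjusted p = 0.683). Rpl4, which lines the exit tunnel of the large subunit, was counted at 709, 535 and 455 CPM in Cyr61 KO, against 572, 731 and 637 CPM in Control (log2 fold change -0.19, SE 0.29, edgeR adjusted p = 0.690). Rps2, at the mRNA entry of the small subunit, was counted at 872, 551 and 459 CPM in Cyr61 KO, against 829.8, 579.9 and 774 CPM in Control (log2 fold change -0.21, SE 0.33, edgeR adjusted p = 0.698). In all 3 genes Cyr61 KO replicate 1 lay inside or above the Control range, while replicates 2 and 3 lay below every Control library. Rpl7l1, the paralog of Rpl7, was the exception among well-counted genes, with 66.0, 71.9 and 66.5 CPM in Cyr61 KO, against 66.6, 52.3 and 72.5 CPM in Control. Its groups overlapped, and its log2 fold change of 0.10 (SE 0.20, edgeR adjusted p = 0.781) turned negative in 3 alternatives, at -0.15 with library totals, -0.016 with upper quartile scaling and -0.00366 without Control replicate 2. The only other tested gene with a positive value was Rpl34, at 0.05, from 6 to 35 counts a library.

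Values of paralog pairs follow. Rpl22 was counted at 136, 90.3 and 76.4 CPM in Cyr61 KO, against 126, 185 and 144 CPM in Control (log2 fold change -0.59, SE 0.28), a smaller difference than the -1.71 of Rpl22l1. Rpl7 was counted at 349, 308 and 262 CPM in Cyr61 KO, against 415, 484 and 407 CPM in Control (log2 fold change -0.51, SE 0.26), where Rpl7l1 had 0.10. Rpl36a, on the X chromosome, had a log2 fold change of -0.90 (SE 0.31) and its paralog Rpl36al -0.41 (SE 0.25). Rps27l, which p53 induces in human cells, was counted at 95.9, 86.8 and 81.4 CPM in Cyr61 KO, against 157, 174 and 162 CPM in Control. Those groups were tight and far apart, with a log2 fold change of -0.90 (SE 0.21, edgeR adjusted p = 0.0521). Rps4x had a log2 fold change of -0.47 (SE 0.26), while Rps4l, the one listed as a pseudogene, at 18.4, 10.2 and 6.84 CPM in Cyr61 KO and 14.9, 37.9 and 12.8 CPM in Control, had -0.89 (SE 0.48) with overlapping groups. Rpl39, of the exit tunnel, was counted at 77.7, 53.1 and 46.4 CPM in Cyr61 KO, against 92.8, 214 and 129 CPM in Control (log2 fold change -1.30, SE 0.35). Rpl3, at the peptidyl transferase centre, was counted at 263, 230.0 and 177 CPM in Cyr61 KO, against 311, 363 and 342 CPM in Control (log2 fold change -0.60, SE 0.26). No edgeR adjusted p in these pairs was below 0.05, and the difference between paralogs was not tested.

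Some genes could not be read. Rpl26 had 0 counts in every library, Rpl30 0 to 5, Rps27 3 to 12 and Rpl3l 0 to 4, and Rpl10l and Rpl39l had counts of 1 and 2 in Cyr61 KO replicate 3 alone. Rpl26, Rpl30 and Rps27 are ubiquitous ribosomal proteins, whereas Rpl3l, Rpl10l and Rpl39l are the muscle and testis paralogs of Rpl3, Rpl10 and Rpl39. The tables count reads that map to 1 place only. Of the possible 50-base stretches in a transcript, a median of 53.5% also stand in another gene's transcripts in the annotation, with 98.6% in Rps27, 96.3% in Rpl10, 93.3% in Rpl9 and 71.3% in Rpl26, but 47.8% in Rpl30 and 37.9% in Rpl34. Rpl10, with nearly all its stretches shared, was counted at 385 CPM or more in every library, while Rpl30 was at or near 0. For Rps24 and Rps15a the shares were 61.8% and 37.6%. Reads that fit a copy equally well are not in these levels, and the read length is not given in the sources used here. Over 77 genes the log2 fold change had little relation to the shared percentage (Spearman rho 0.08 across genes, a description). Counts on the opposite strand were 0.0772% to 0.101% of the stranded counts of these genes in Cyr61 KO and 0.0457% to 0.0767% in Control.

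The 3 Cyr61 KO libraries differed among themselves. Of the 78 tested genes with a mean of at least 1 CPM, 53 were below every Control library in Cyr61 KO replicate 1, 74 in replicate 2 and 77 in replicate 3. The median log2 ratio to the Control mean was -0.42 in replicate 1, -0.96 in replicate 2 and -1.14 in replicate 3. Replicate 1 was above both other Cyr61 KO libraries in 68 genes, with a median log2 ratio of 0.61 to their mean, where all tested genes had -0.07. Replicate 2 was above replicate 3 in 77. In Control, replicate 2 was the highest of all 6 libraries for 64 genes, with a median log2 ratio of 0.47 to the mean of replicates 1 and 3, where all tested genes had -0.00296. The matching shares of all tested genes, and their medians against the Control mean, are not given here. The counts by library are thus descriptions.

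**Figure D3:**
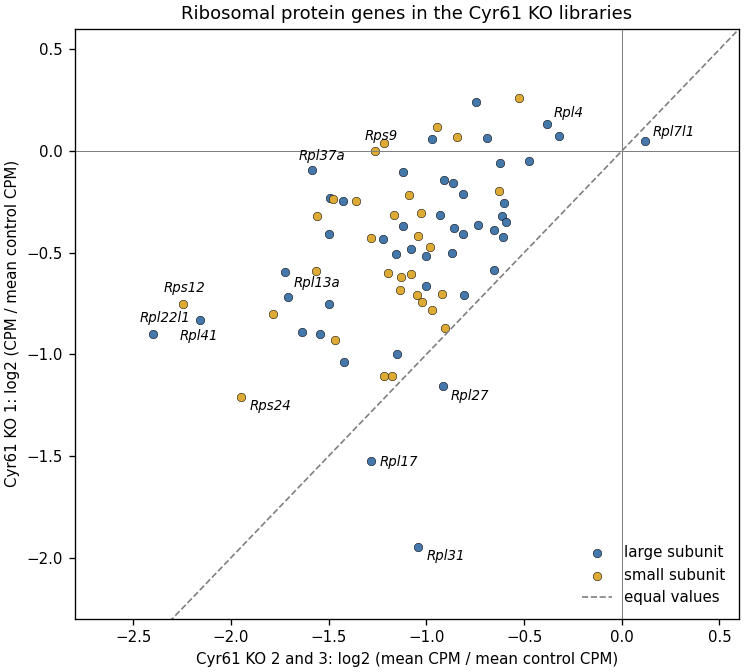
Cyr61 KO replicate 1 (vertical axis) against the mean of Cyr61 KO replicates 2 and 3 (horizontal axis), each as log2 of CPM over the mean Control CPM; each point is 1 of 77 genes, coloured by subunit, and the dashed line marks equal values. Most points lie above the line, while Rpl31, Rpl17 and Rpl27 lie below it.

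Against that order, 5 genes were lowest in Cyr61 KO replicate 1 among the Cyr61 KO libraries, among them Rpl7l1, by a narrow margin. The 3 that follow were chosen after their values were seen. Rpl31, at the exit of the tunnel, was counted at 46.0, 93.2 and 79.4 CPM in Cyr61 KO, against 125, 316 and 91.8 CPM in Control (log2 fold change -1.28, SE 0.47, edgeR adjusted p = 0.129). Replicate 1 was well below the other Cyr61 KO libraries, replicate 2 overlapped the Control range, and Control replicate 2 was far above the other Control libraries. Rpl17 was counted at 106, 133 and 118 CPM in Cyr61 KO, against 234, 446 and 232 CPM in Control, without overlap (log2 fold change -1.36, SE 0.32, edgeR adjusted p = 0.0532). Rpl27 was counted at 66.8, 87.3 and 70.4 CPM in Cyr61 KO, against 114, 231 and 102 CPM in Control (log2 fold change -0.99, SE 0.33, edgeR adjusted p = 0.109).

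The size of the difference varied with the length of the coding sequence. Across 77 genes the log2 fold change had a Spearman rho of 0.63 with coding length, and across 12590 other tested genes 0.23; genes of one library share its depth and RNA quality, so these are descriptions. The 57 ribosomal protein genes under 600 bases had a median log2 fold change of -0.92, where 2112 other genes of that length had -0.30. The 20 of 600 bases and over had -0.49, where 10478 other genes had 0.05. These other genes were not matched for level. Among other genes at 50 CPM or more, the median was -0.32 for 130 genes under 300 bases. It was -0.13 for 183 genes from 300 to under 450 bases and 0.12 for 439 genes from 600 to under 900. Over the 77 ribosomal protein genes, libraries of 1 group also differed by length. The ratio of Control replicate 2 to Control replicates 1 and 3 had a rho of -0.61 with coding length, the shorter genes being the higher ones. The ratio of Control replicate 1 to Control replicate 3 had 0.40. Among other tested genes the median log2 ratio of Control replicate 2 did not fall throughout. It was 0.18 under 300 bases, -0.11 from 900 to under 1500 and 0.17 at 3000 and over. Within Cyr61 KO the rho over the 77 ribosomal protein genes was -0.20 for replicate 1 over replicates 2 and 3 and 0.10 for replicate 2 over replicate 3. Against the Control mean, which holds Control replicate 2, it was 0.42 for Cyr61 KO replicate 1 and 0.55 for Cyr61 KO replicates 2 and 3. An alternative chosen after seeing the data removed each library's trend over the other genes. It gave a median of -0.57, 76 of 78 genes negative, 29 lower at an unadjusted p below 0.05 and 1 called by edgeR, Rps24, at a log2 fold change of -1.36 (adjusted p = 0.0481). Over all genes that fit called 2.10% lower, and their share at the unadjusted threshold was not computed. The part of RNA quality or library preparation in this relation was not tested.

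**Figure D4:**
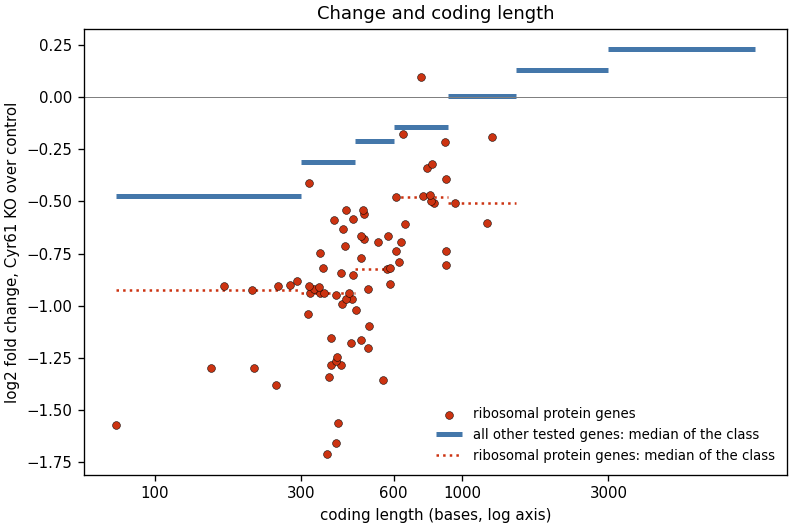
Log2 fold change of Cyr61 KO over Control (vertical axis) against coding length in bases (horizontal, log axis) for ribosomal protein genes (red points, dotted class medians), with the median of all other tested genes in each length class (blue bars). From 300 to under 450 bases the medians are -0.94 for 33 ribosomal protein genes and -0.31 for 728 others; from 600 to under 900 bases they are -0.48 for 17 and -0.14 for 1812.

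The other lists of the translation machinery had medians nearer 0, and 0 of their genes were called by edgeR in either direction, while DESeq2 called 10 lower and 4 higher of 166 genes in the 6 lists up to the mitochondrial ribosomal proteins, under its 10.2% and 6.54% of all genes. Counts at an unadjusted p below 0.05 in these lists are to be read beside 16.1% of all genes lower and 11.3% higher. Among further ribosomal proteins outside the naming rule, Gnb2l1 (RACK1, a signalling scaffold on the small subunit) was counted at 351, 267 and 243 CPM in Cyr61 KO, against 439.8, 425 and 419 CPM in Control (log2 fold change -0.58, SE 0.26, edgeR adjusted p = 0.190). Fau, a ubiquitin-like protein fused to one of the small subunit, had -0.92 (SE 0.31). Among 16 TOP mRNAs that encode translation factors and other proteins the median was -0.34, with 2 lower and 0 higher at an unadjusted p below 0.05. Eef1a1, which brings aminoacyl-tRNA to the ribosome, was counted at 6115, 5401 and 4208 CPM in Cyr61 KO, against 5267, 3466 and 5151 CPM in Control (log2 fold change 0.18, SE 0.37, edgeR adjusted p = 0.772). Eef2, the translocation factor, was counted at 1967, 1935 and 1689.7 CPM in Cyr61 KO, against 1337, 876 and 1448 CPM in Control, higher in every Cyr61 KO library (log2 fold change 0.61, SE 0.32, edgeR adjusted p = 0.248). Of the 16, 13 had a negative log2 fold change, beside 51.6% of all tested genes. Every Cyr61 KO library was below every Control library in 6, beside 17.9% of all genes. The reverse held in 2, Eef2 among them, beside 17.3%. Tpt1, a growth-related abundant TOP mRNA named after its values were seen, is among the 6. It had 982, 918 and 735 CPM in Cyr61 KO, against 1119, 1703 and 1135 CPM in Control (log2 fold change -0.59, SE 0.32, edgeR adjusted p = 0.256).

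Ribosome assembly factors had a median of -0.13 over 42 genes, with 5 lower and 0 higher at an unadjusted p below 0.05. Of their most abundant members, Ncl (nucleolin) had a log2 fold change of 0.05 (SE 0.27) and Eif6, which keeps the subunits apart, -0.63 (SE 0.38). RNA polymerase I and its factors, which make rRNA, had a median of -0.40 over 15 genes, with 4 lower and 0 higher. Ubtf, which opens rRNA genes for transcription, had 0.18 (SE 0.18) and Polr1d, a polymerase subunit, -0.42 (SE 0.38). Genes of mTORC1, LARP1 and MYC control had a median of 0.23 over 16 genes, with 2 lower and 4 higher. Larp1, which binds TOP mRNAs, had 0.36 (SE 0.26, edgeR adjusted p = 0.384), and Eif4ebp2, a repressor of cap-dependent translation under mTORC1, 1.46 (SE 0.44, edgeR adjusted p = 0.0883). Myc, a driver of ribosome production in many cells, was named outside the rule for genes and had the lowest log2 fold change of the 16. It was counted at 8.97, 10.8 and 7.18 CPM in Cyr61 KO, against 38.2, 31.3 and 10.6 CPM in Control (log2 fold change -1.57, SE 0.43, edgeR adjusted p = 0.0746). Control replicate 3 was close to the Cyr61 KO libraries in Myc, and the groups overlapped.

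Mitochondrial ribosomal proteins, which belong to a separate ribosome, had a median of -0.20 over 74 genes, with 7 lower and 0 higher at an unadjusted p below 0.05. Mrpl12 had a log2 fold change of -0.14 (SE 0.35) and Mrps7 -0.01 (SE 0.24). Nuclear-encoded subunits of the respiratory chain, another set of short and abundant mRNAs, had a median of -0.23 over 75 tested of 80 genes, with 4 lower and 1 higher. Both lists are to be read beside 16.1% of all tested genes lower and 11.3% higher at that threshold. Atp5b had 0.49 (SE 0.37) and Atp5a1 0.61 (SE 0.40), both subunits of ATP synthase.

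**Figure D5:**
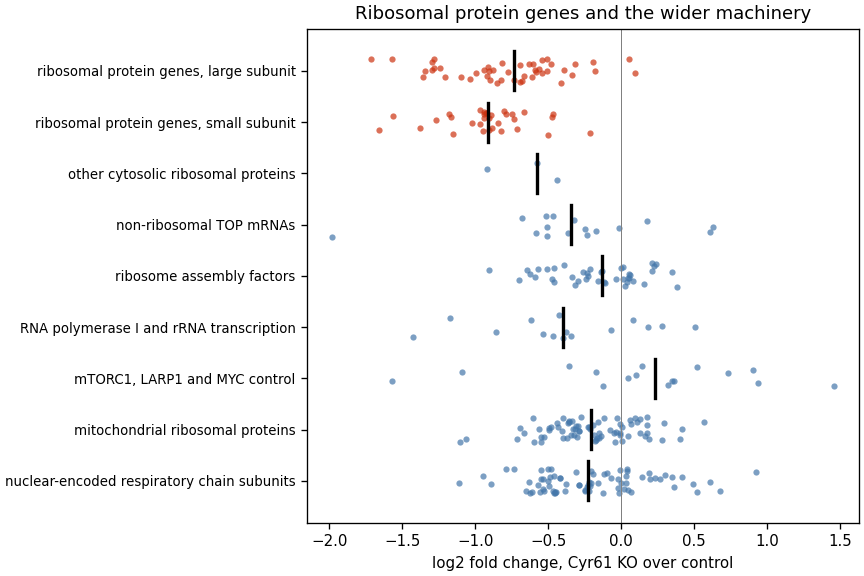
Log2 fold change of Cyr61 KO over Control (horizontal axis) for ribosomal protein genes by subunit (red) and for the other lists (blue); each point is 1 gene and each black bar the list's median. The bars stand at -0.74 and -0.91 for the large and small subunit, and between -0.58 and 0.23 for the other lists.

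Several marker lists of other cell types differed in the same direction as the ribosomal protein genes. The summed level of 11 macrophage markers was 215 to 481 CPM in Cyr61 KO, against 723 to 1175 CPM in Control, with 4 of 11 called lower. Over all tested genes, 2.37% were called lower and 1.07% higher, and 16.1% were lower at an unadjusted p below 0.05. For 12 lymphocyte markers the sum was 7.01 to 10.01 CPM in Cyr61 KO, against 19.6, 113 and 14.2 CPM in Control, with 0 called and 10 lower at an unadjusted p below 0.05. For 7 neutrophil markers it was 3.02 to 7.57 CPM in Cyr61 KO, against 16.9, 75.5 and 33.6 CPM in Control, with 2 called lower. The sums of 9 cholangiocyte markers were 43.2 to 59.2 CPM in Cyr61 KO, against 73.4, 371 and 63.5 CPM in Control, and those of 11 stellate cell markers 451 to 689 CPM in Cyr61 KO, against 859 to 1367 CPM in Control, with 0 and 3 called lower. The stellate cell markers were split: 7 of 11 had a negative log2 fold change, beside 51.6% of all genes, and the highest value was 0.53. Every Cyr61 KO library was below every Control library in 6 of them, beside 17.9%, and above in 1, beside 17.3%. Control replicate 2 was the highest library for each of these lists, by far so for lymphocyte and cholangiocyte markers, whose other Control libraries lay closer to Cyr61 KO. Cell cycle genes summed to 44.5 to 90.8 CPM in Cyr61 KO, against 93.1 to 175 CPM in Control. Endothelial markers ran the other way, at 275 to 442 CPM in Cyr61 KO and 174 to 290.4 CPM in Control, with 2 of 10 called higher. Hepatocyte markers, led by Alb, summed to 129721 to 159858 CPM in Cyr61 KO and 49315 to 130507 CPM in Control, the lowest in Control replicate 2. Of 13, 1 was called higher, Cyp2e1 (log2 fold change 1.83, SE 0.38, edgeR adjusted p = 0.0427), and 0 lower. In 5 all Cyr61 KO libraries were above all Control libraries, beside 17.3% of all tested genes. Malat1, a nuclear long RNA, stood at 56.5 to 104 CPM in Cyr61 KO, against 128, 3738 and 86.1 CPM in Control. None of these lists had a member at 0 in every library, and their part in the lower ribosomal protein counts was not tested.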

How the data were processed

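Liver RNA of 3 Cyr61 KO and 3 Control libraries was measured. The deposited values are read counts per gene, made by the authors, 1 table a library. Per the submitters' processing notes, the tools were STAR 2.6.1a and Trimmomatic 0.38, with mm10 and hg38 as builds; annotation release and read length: not given in the sources used here. The strand of the directional kit was used. Reads that mapped to several places, to no gene or to several genes stayed out of library sizes. The members, gene lists and alternatives were chosen with earlier results of these data known.

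The two-sided quasi-likelihood F test of edgeR 4.0.16 (R 4.3.3) was run with group as the only term, TMM scaling and the filterByExpr defaults (minimum count 10, minimum total 15), with Benjamini-Hochberg adjustment over 13563 genes and a threshold of 0.05. Each SE was computed as the size of the log2 fold change divided by the root of its F value. CPM are TMM-scaled. DESeq2 1.42.0, limma 3.58.1 (voom with quality weights), other scalings and filters, unstranded counts, a block on replicate number and leaving out each library were alternatives. An exact permutation test of 3 against 3 cannot go below a two-sided p of 0.1, so none was used.

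Genes named are the called ones, the 4 of largest and the 4 of smallest change, positive ones, the 4 of highest level per length, the stalk genes and Rpsa, paralog pairs and the 2 most abundant genes of each list. Genes chosen otherwise are said to be. Some genes are not reported here. Positions, coding lengths and transcript lengths are from GENCODE M21 (GRCm38, the assembly of mm10), promoter letters from RefSeq GRCm38.p6. Where a gene has several annotated transcripts, the lower middle length was used. Every pair of libraries differed beyond sampling noise, with a chi-square per degree of freedom of at least 58.0.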

Additional observations from a re-analysis of the deposited data

How the results depend on the processing

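The median log2 fold change of the ribosomal protein genes stayed negative in all 17 alternatives, between -1.20 (library totals) and -0.57 (coding length trend removed), and 0 genes were called higher in any. The number called lower, 2 by edgeR, was 37 with DESeq2 and 63 with limma voom with quality weights. These stood beside 2.37%, 10.2% and 17.8% of all genes called lower in the same fits. The number was 0 with library totals, 10 without a low-count filter and 4 under the filter of 1 CPM in 3 libraries. Over all genes those fits called 0.17%, 3.72% and 2.46% lower. With the coding length trend removed the number was 1, beside 2.10% of all genes. With a library left out the number ranged from 0 to 7, beside 0.022% to 5.17% of all genes. Library totals moved the median of all genes to -0.30 and the share of higher calls to 54%, against 31.0%. In the 6 lists of the wider machinery the lower calls, 0 by edgeR, were 10 with DESeq2, 41 with voom, 3 without the filter, 1 with the replicate block and 0 to 2 with a library left out. In the main fit the lists held 166 tested genes. The same alternatives called 10.2%, 17.8%, 3.72%, 3.47% and 0.022% to 5.17% of all genes lower. Higher calls in the lists, 0 by edgeR, were 4 with DESeq2, 8 with voom and 1 with the replicate block. Of all 13563 tested genes, those alternatives called 886, 2074 and 162 higher. Cyr61 ranged from -3.19 to -2.73 with a library left out. The cause of these moves was not tested. The direction of Rpl7l1 turned under library totals (-0.15), upper quartile scaling (-0.016) and without Control replicate 2; with a library left out it ranged from -0.00366 to 0.21.

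Same-numbered libraries deviated with correlations of -0.06, -0.24 and -0.45, and differently numbered ones with -0.19 to 0.36. With 3 libraries a group these values cannot decide whether the numbers pair the libraries. A fit with the replicate block called 2 ribosomal protein genes, Rps24 and Rpl22l1, with 39 lower at an unadjusted p below 0.05, against 52. Over all genes it called 3.47% lower, against 2.37% without the block.

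With 3 libraries a group and reads that fit several copies left out, single genes are read with limited precision.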
